A study of Elaeis guineensis with 9 samples.

Results

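The 200 most evenly expressed leaf mRNAs of this oil palm series are transcript rows whose abundance differed least among 9 leaf libraries. They were chosen by their measured values. Among transcript models with an XM accession (predicted mRNAs of RefSeq) and a mean of at least 50 and under 1000 TPM, 2965 of the 51490 rows of the deposited table, the 200 rows with the lowest coefficient of variation (CV) were taken. The CV is the standard deviation over the 9 libraries divided by their mean, and TPM is a length-corrected relative transcript abundance that adds up to 1000000 in every library. The chosen rows are called the even rows here, and the other 2765 rows of the same range of means are called the remaining rows.

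Leaves of the African oil palm, Elaeis guineensis, were sampled at frond 17 from palms of the Tenera cultivar, the thin-shelled hybrid fruit form, which were 7 years old, stood in the same field and had 4 years of yield records. The libraries came from 3 populations, Deli x SP540, Deli x Yangambi and Deli x LaMe, which share the Deli parent, and from palms classed as low, medium or high yield. Each combination of population and yield class was represented by 1 library, so each population and each yield class held 3 libraries. The labels name no treatment, do not say whether a library held 1 palm or a pool, and name no batch, so a batch could not be told apart from the groups. The gene table that was used names no product for the marker genes of leaf cells, so the tissue label was not checked against them. Where the values of a row are given by population, the 3 libraries stand in the order low, medium and high yield.

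Some transcripts are held at a similar level across individuals and conditions because their products are needed by nearly every cell, and such genes are often called housekeeping genes. Plant laboratories use them as reference genes in quantitative PCR, where the level of another gene is expressed relative to a transcript that is assumed to be constant. Actin, tubulin, ubiquitin, translation elongation factors and ribosomal proteins are the classical choices. How constant a transcript is has to be measured in each tissue and population, and the spread over libraries is one measure of it. In whole-leaf RNA, fewer cells of a type and less RNA per cell cannot be told apart, so an even level is a property of the leaf sample and not of a cell.

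The even rows covered the whole range of means from which they were drawn. Their mean level ran from 50.1 to 993 TPM with a median of 92.9 TPM, against a median of 89.9 TPM in the remaining rows. There were 71 even rows between 50 and 75 TPM, 44 between 75 and 100 TPM, 51 between 100 and 200 TPM, 23 between 200 and 500 TPM and 11 between 500 and 1000 TPM. The even rows made up 6.32% of all rows in the lowest of these classes and 11.8% in the highest, and between 6.02% and 7.93% in the other classes. The median CV of the remaining rows differed little between levels, lying between 15.5% and 16.5% in every class. Together the even rows held between 3.01% and 3.07% of the TPM of a library.

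Their CV lay between 2.97% and 7.70% with a median of 6.65%, whereas the remaining rows had a median of 16.2%. Since the CV chose the rows, these values describe the choice and were not tested. The highest of the 9 values of an even row was 1.09 to 1.33 times the lowest, with a median of 1.22, against a median of 1.65 in the remaining rows. Of all single values of the even rows, 10.9% lay more than 10% from the mean of their row, and 0.833% lay more than 15% from it. The shares in the remaining rows were 53.8% and 37.4%.

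**Figure D1:**
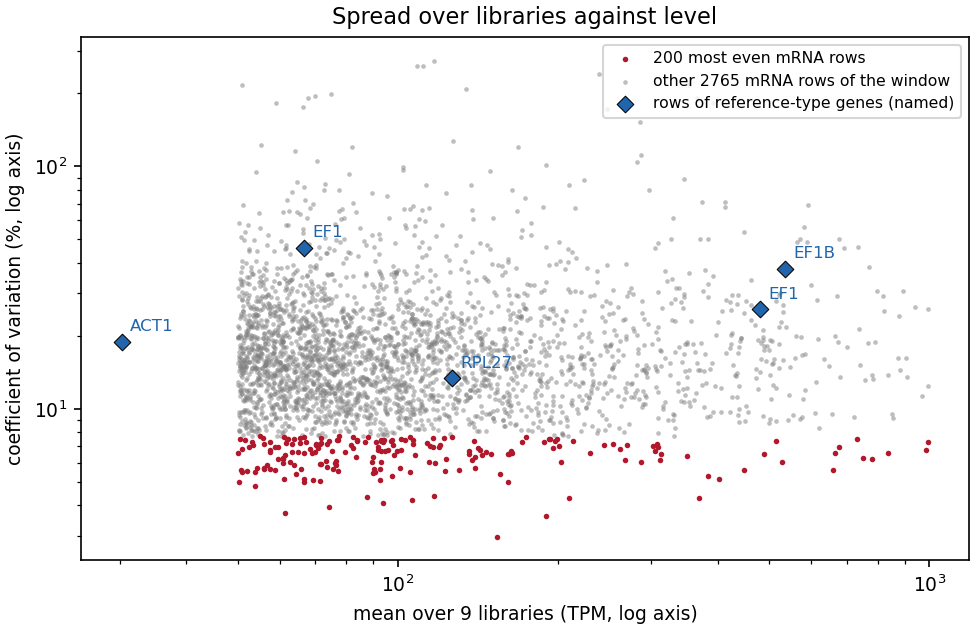
CV over the 9 libraries (%, log axis) against mean level (TPM, log axis) for the 200 even rows (red), the other 2765 mRNA rows of the window (grey) and 5 rows of genes of the reference type with a mean of at least 20 TPM (blue diamonds). The even rows, chosen by CV, lie between 2.97% and 7.70% at every level, and the blue diamonds lie between 13.3% and 46.2%.

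The row with the lowest CV was XM_010916818.3 (gene LOC105040328). It was measured at 157.4, 153.4 and 150.8 TPM in SP540, at 155.1, 159.3 and 150.3 TPM in Yangambi and at 152.2, 159.6 and 145.8 TPM in LaMe leaves, a mean of 153.8 ± 4.57 TPM (SD, n = 9). The populations overlapped, and the high-yield library was the lowest of its population in every population. After the 2 rescalings of the libraries described further on, this held in Yangambi and LaMe, whereas in SP540 the medium-yield library was lowest, at 141.0 and 140.1 against 147.9 and 147.7 on the rescaled TPM.

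XM_010911268.3 (LOC105035646) came second with a CV of 3.61%. Its values were 178.0, 187.7 and 193.9 TPM in SP540, 189.2, 189.8 and 200.7 TPM in Yangambi and 190.8, 182.0 and 195.7 TPM in LaMe leaves. Here the high-yield library was the highest of each population, and the 3 high-yield values, from 193.9 to 200.7 TPM, lay above all others. After both rescalings high yield overlapped with both other classes in this row.

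XM_010908757.3 (LOC105033825), with the next lowest CV of 3.72%, was less abundant. It stood at 62.7, 63.7 and 59.9 TPM in SP540, at 57.3, 61.0 and 60.9 TPM in Yangambi and at 60.4, 62.5 and 65.0 TPM in LaMe leaves. Neither the populations nor the yield classes were separated.

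A small spread could still be ordered by population. XM_010910034.3 (LOC105034762), with a CV of 3.92%, was measured at 78.1, 78.0 and 77.1 TPM in SP540, at 70.7, 72.0 and 70.8 TPM in Yangambi and at 72.9, 74.1 and 74.7 TPM in LaMe leaves. No value of one population fell within the range of another, although the highest value was only 1.10 times the lowest. The population means were 77.7 ± 0.540 TPM in SP540, 71.2 ± 0.737 TPM in Yangambi and 73.9 ± 0.894 TPM in LaMe leaves (SD, n = 3 each).

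The next 16 rows by CV lay between 4.09% and 5.15%. The most abundant of them were XM_010918667.2 (LOC105041675) at 401.8 ± 20.7 TPM, XM_010925834.3 (LOC105047049) at 369.0 ± 15.8 TPM, and XM_010907697.3 at 210.4 ± 9.01 TPM (SD, n = 9 each), the last of which was not paired with a gene. XM_010911209.3 (LOC105035607), XM_010921456.2 (LOC105043765) and XM_010944544.2 (LOC105060736) followed at 161.5 ± 8.02, 116.8 ± 5.09 and 106.4 ± 4.48 TPM. XM_010934523.3 (LOC105053395), XM_010928772.2 (LOC105049203) and XM_010910387.3 (LOC105035004) had means of 93.96, 92.6 and 87.6 TPM. The other 7 had means between 50.3 and 71.3 TPM and were XM_010907543.2 (LOC105032940), XM_010911746.3 (LOC105036012), XM_010909958.3 (LOC105034704), XM_010917178.3 (LOC105040589), XM_010943828.3 (LOC105060218), XM_010937899.3 (LOC105055889) and XM_029260605.1, which was not paired with a gene.

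**Figure D2:**
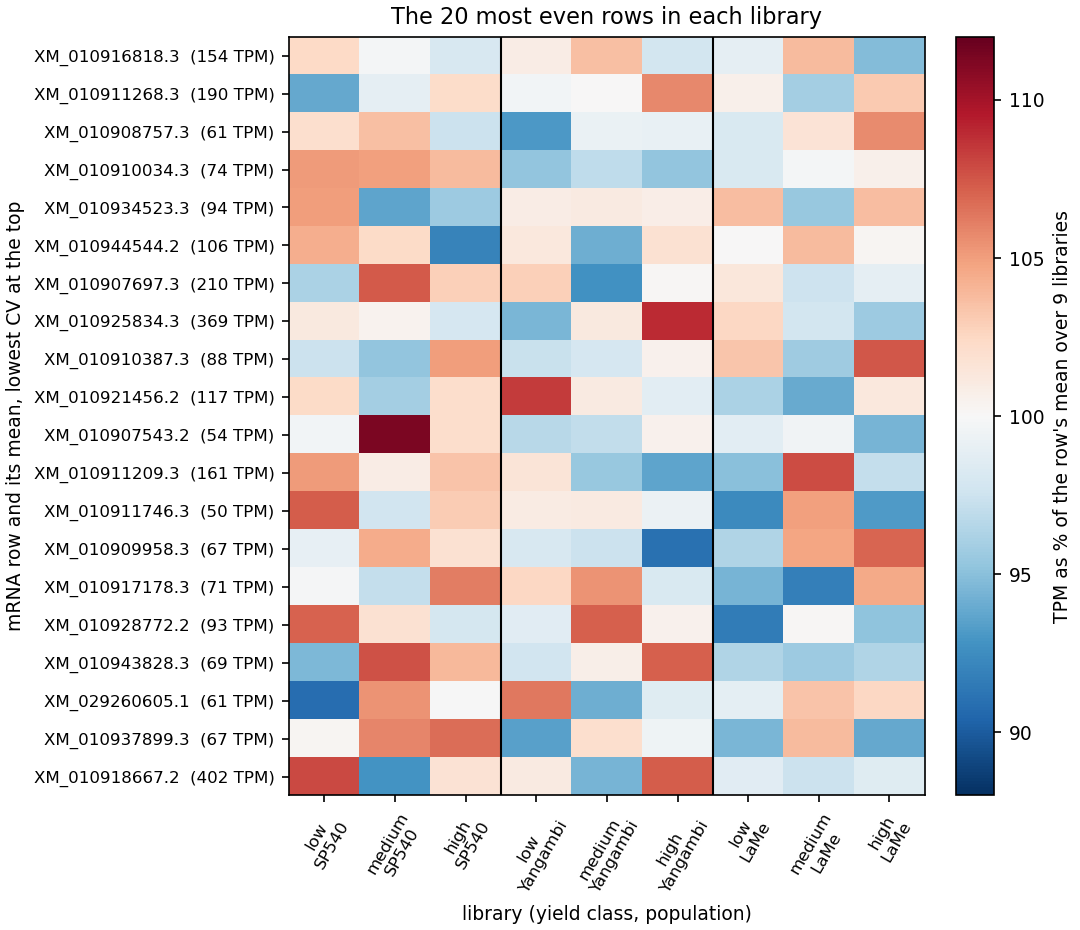
TPM of the 20 rows of lowest CV in each of the 9 libraries, as a percentage of the mean of the row over the libraries; rows run from the lowest CV at the top, and black lines divide SP540, Yangambi and LaMe from left to right. No column is red or blue throughout, and the row of XM_010910034.3 is red in SP540 and blue in Yangambi.

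At the top of the range of levels stood XM_010931921.2, a row not paired with a gene. It was measured at 1016.1, 1039.9 and 981.5 TPM in SP540, at 987.9, 1061.3 and 1113.3 TPM in Yangambi and at 902.8, 906.7 and 929.0 TPM in LaMe leaves. All 3 LaMe values lay below the other 6. XM_010922067.2 (LOC105044241) was at 984.2 ± 66.4 TPM and XM_010944255.3 (LOC105060515) at 837.5 ± 54.8 TPM (SD, n = 9 each). XM_010929661.3 (LOC105049882) was at 779.7 ± 48.6 TPM and XM_010941863.3 (LOC105058811) at 749.7 ± 46.95 TPM. At the low end, between 50.1 and 51.0 TPM, were XM_010920093.3 (LOC105042772), XM_010911746.3, XM_029264777.1, XM_010917154.3 (LOC105040572) and XM_010931052.3 (LOC105050858), with CVs from 4.99% to 7.497%.

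The CV left no gap at the 200th row. The last rows inside were XM_010908104.3 (LOC105033343), XM_010906320.3 (LOC105032005) and XM_010938228.3 (LOC105056125), at 7.69%, 7.69% and 7.70%. The first rows outside were XM_010913975.1 (LOC105038241), XM_010926180.2 and XM_010914699.3, at 7.70%, 7.70% and 7.73%. The largest single departures among the even rows were in rows near this edge. XM_019854662.2 (LOC105057802) reached 91.5 TPM in the low-yield Yangambi library, 118% of its mean, while its other 8 values lay between 72.4 and 78.9 TPM. XM_010913996.3 (LOC105038252) was at 71.6 TPM in the low-yield SP540 library, 81.5% of its mean, and between 86.1 and 95.1 TPM elsewhere.

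Genes in common use as references were set beside the even rows, whose CVs are the lowest of their range by choice. A CV above theirs is therefore no finding about these genes. The median CV of all 2965 rows was 15.5%. The gene table names 4 genes of this kind with 6 rows in the deposited table. Only 2 of these rows, the main row of RPL27 and the predicted row of EF1, were open to the choice by accession and level, so the absence of the others from the even rows follows from the rule, and only their values are given. The row of the actin gene ACT1, whose product forms the actin filaments of the cytoskeleton, was measured at 35.4, 36.9 and 26.6 TPM in SP540, at 24.5, 34.2 and 38.1 TPM in Yangambi and at 24.9, 27.1 and 24.9 TPM in LaMe leaves. Its CV was 18.9%, its highest value was 1.55 times its lowest, and 65.3% of the 2965 rows had a lower CV. Its mean of 30.3 TPM was below the range from which the even rows were drawn. Predicted mRNA rows between 10 and 50 TPM, the level of ACT1, had a median CV of 20.2%.

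The main row of RPL27, a protein of the large ribosomal subunit, was nearest to the even rows. It was at 141.9, 107.4 and 109.1 TPM in SP540, at 105.0, 126.2 and 122.96 TPM in Yangambi and at 145.9, 148.6 and 133.1 TPM in LaMe leaves, with a CV of 13.3%, and 37.8% of the 2965 rows had a lower one. EF1, a translation elongation factor, had a curated row at 480.4 ± 124 TPM with a CV of 25.7% and a predicted row at 66.6 ± 30.8 TPM with a CV of 46.2% (SD, n = 9 each). Both are rows of the same gene, and the CV of their sum is not given here. EF1B, a subunit of the factor that recharges the elongation factor with GTP, was at 536.2 ± 203 TPM with a CV of 37.8%. Its lowest value was 267.2 TPM, its median 503.2 TPM and its highest 853.7 TPM, so that the highest was 3.20 times the lowest. The median of this ratio was 1.65 in the remaining rows. It was at most 1.33 in the even rows, which were chosen for a small spread.

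The even rows were also described library by library, which shows what the choice by CV left and is no separate finding. In each library the value of every row was taken as a percentage of its own mean over the 9 libraries, and the median of these percentages was formed. In SP540 leaves the median of the even rows was 99.6%, 99.0% and 100.6%, with the libraries from low to high yield. It was 99.2%, 101.2% and 100.6% in Yangambi leaves and 99.4%, 100.8% and 100.3% in LaMe leaves, so that the 9 medians spanned 2.11 percentage points. The remaining rows lay between 95.1% in the low-yield Yangambi library and 100.7% in the high-yield Yangambi library. In every library the middle 90% of the even rows stayed within 88.9% and 111% of their means, whereas the remaining rows reached 56.5% at the low end and 142% at the high end, both in the low-yield Yangambi library.

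The span of the medians depended on the scale. The medium-yield SP540 library, which had the most rows above 0 (37060, against 33581 to 35732 in the others), had a median-of-ratios factor of 1.09 over all rows above 0 in every library, a log2 shift of 0.12. A trimmed mean of ratios gave 1.09 and a log2 shift of 0.13. After division by these factors the medians of the even rows spanned 13.2 and 14.1 percentage points, and 135 and 128 of the 200 rows were again among the 200 most even. The remaining rows of the same range of means had a median of 100.3% in that library on the TPM scale.

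**Figure D3:**
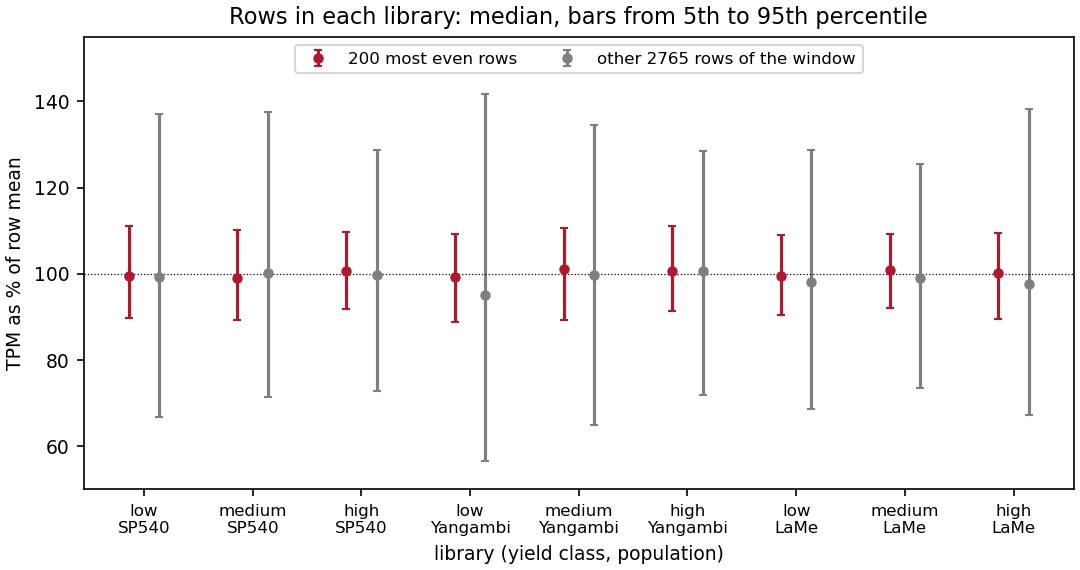
TPM in each library as a percentage of the mean of the row, for the 200 even rows (red) and the 2765 remaining rows (grey); points are medians over rows and bars run from the 5th to the 95th percentile. The red medians lie between 99.0% and 101.2%, and the grey bars are widest in the low-yield Yangambi library.

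No library was the extreme one for most even rows. The highest value of a row fell most often in the medium-yield Yangambi library, in 28 of the 200 even rows. It fell least often in the low-yield LaMe library, in 12. The same libraries, in that order, held the highest value in 12.3% and 6.65% of the remaining rows. The lowest value fell most often in the low-yield Yangambi library, in 35 even rows (17.5%), and in the medium-yield SP540 library, in 34 (17.0%). In the remaining rows, the low-yield Yangambi library held the lowest value in 22.9% and the medium-yield SP540 library in 8.25%.

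Whether the small variation that was left followed population or yield was described by dividing the sum of squares of each row into a part between populations, a part between yield classes and a remainder. Population used 2 of the 8 degrees of freedom of a row, and yield class as many. Each factor therefore takes up part of the variance also in rows that follow neither, so a share alone is no sign of a group effect. The median share between populations was 25.5% in the even rows and 35.2% in the remaining rows. The median share between yield classes was 17.1% and 14.8% in the same order, and the remainder was 49.4% and 41.7%. In 111 of the 200 even rows (55.5%) more variance lay between populations than between yield classes, against 70.0% of the remaining rows. Under both rescalings of the libraries the medians between populations were 28.3% and 27.5% in the even rows and 35.5% and 35.4% in the remaining rows. The same libraries gave the CV and these shares, so no test was made.

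**Figure D4:**
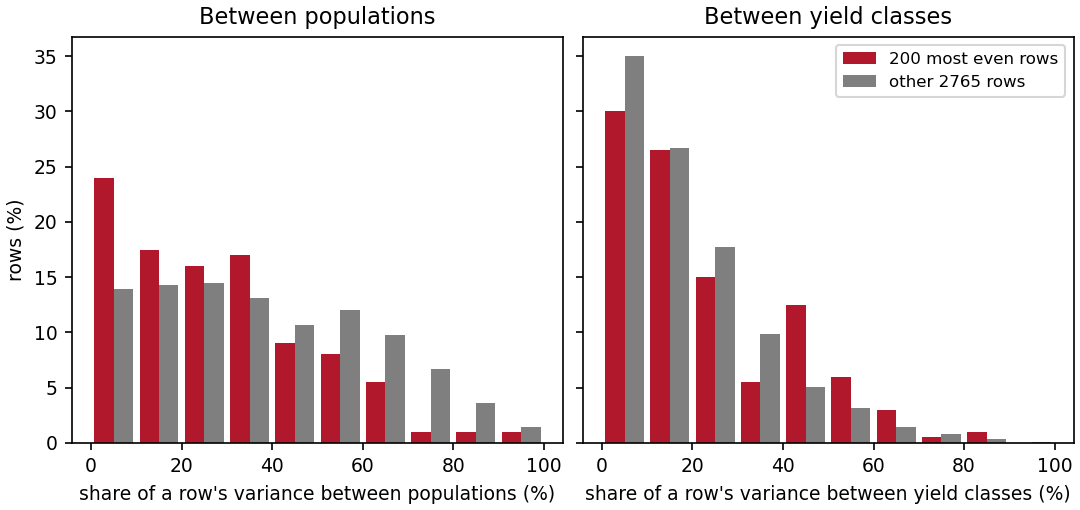
Share of the variance of a row (%) that lay between the 3 populations (left) and between the 3 yield classes (right), as the percentage of the 200 even rows (red) and of the 2765 remaining rows (grey) in classes of 10 percentage points. In the left panel the red bars are higher than the grey ones at low shares and lower from 40% upwards, with medians of 25.5% and 35.2%, while in the right panel the medians are 17.1% and 14.8%.

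Populations were then compared row by row, by asking whether the 3 libraries of one population all lay above or all below the 3 of another. SP540 and Yangambi did not overlap in 16 of the 200 even rows, beside 18.8% of all 2965 rows. SP540 was above in 7 of them, beside 10.8% of all rows, and below in 9, beside 7.99%. SP540 and LaMe did not overlap in 24 even rows, beside 19.3% of all rows. Here SP540 was above in 10, beside 11.1%, and below in 14, beside 8.2%. Yangambi and LaMe did not overlap in 26 even rows, beside 29.2%, with Yangambi above in 14, beside 14.9%, and below in 12, beside 14.3%. These contrasts are part of the CV, so the counts describe the rows and nothing is read from their distance to the background. The directions belong to the TPM scale. After median-of-ratios scaling SP540 lay above Yangambi in 2 even rows and below it in 24, beside 6.75% and 11.8% of all 2965 rows on that scale. After trimmed-mean scaling the counts were 3 and 20, beside 6.98% and 11.1%. Under either scaling SP540 lay above LaMe in 1 even row and below it in 41, beside 5.94% and 13% of all rows after the first and 5.6% and 13.3% after the second. Yangambi lay above LaMe in 9 and below it in 21 after the first scaling, beside 12.8% and 15.6%. After the second the counts were 4 and 22, beside 11.5% and 16.9%.

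Since each population was sampled at the same 3 yield classes, its libraries could also be matched by class. SP540 differed from Yangambi in one direction in all 3 matched pairs in 47 even rows, beside 32.4% of all 2965 rows. For SP540 and LaMe this held in 48 even rows, beside 35.2%, and for Yangambi and LaMe in 62, beside 43.4%. These counts, too, are made of the values that chose the rows, and their directions belong to the TPM scale. SP540 lay above LaMe in 24 even rows and below it in 24, beside 20.3% and 14.9% of all rows. After median-of-ratios scaling the counts were 3 and 67, beside 11.1% and 23.5%. They were 1 and 66 after trimmed-mean scaling, beside 10.4% and 23.7%. For SP540 and Yangambi and for Yangambi and LaMe, too, fewer even rows lay above and more below after either scaling.

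The difference between 2 population means, as a percentage of the row mean, had a median size in the even rows of 3.95% (SP540 and Yangambi), 3.94% (SP540 and LaMe) and 4.33% (Yangambi and LaMe). In the remaining rows it was 12.2%, 10.9% and 14.3%. The largest difference in an even row was 16.6% of its mean, with SP540 above Yangambi.

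All 3 populations stood apart from one another in 2 even rows, beside 2.09% of all 2965 rows. One was XM_010910034.3, described above. The other was XM_010943362.2 (LOC105059874), at 193.3, 194.2 and 179.9 TPM in SP540, 158.8, 164.5 and 157.2 TPM in Yangambi and 175.8, 175.9 and 171.2 TPM in LaMe leaves. In both, SP540 was highest, LaMe intermediate and Yangambi lowest on the TPM scale. Under both rescalings Yangambi stayed below LaMe in both rows, whereas SP540 overlapped with LaMe in both and with Yangambi in XM_010910034.3.

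The other rows with the highest share of variance between populations set 1 population apart. XM_010928898.2 (LOC105049292) was at 86.6, 83.3 and 85.2 TPM in SP540, at 96.8, 96.4 and 97.6 TPM in Yangambi and at 95.6, 97.0 and 99.8 TPM in LaMe leaves, and 95.1% of its variance lay between populations. SP540 was the low population, under both rescalings as well, and the other two overlapped. XM_010928661.3 (LOC105049102) was at 103.7, 102.4 and 103.8 TPM in SP540, at 91.1, 90.4 and 95.6 TPM in Yangambi and at 103.4, 110.9 and 111.2 TPM in LaMe leaves. Yangambi was the low population in that row, but after both rescalings it lay below LaMe and overlapped with SP540. LaMe was the low population in XM_010931921.2, under both rescalings as well.

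Between yield classes, the same question gave 19 even rows without overlap for high against low yield, beside 6.71% of all 2965 rows. In 13 of them high yield lay above low yield, beside 4.92% of all rows, and in 6 below it, beside 1.79%. Medium and low yield did not overlap in 17 even rows, beside 3.91%. Medium yield was above in 10 of them, beside 2.56%, and below in 7, beside 1.35%. High and medium yield did not overlap in 20 even rows, beside 7.42%, with high yield above in 12, beside 3.71%, and below in 8, beside 3.71%. As for the populations, nothing is read from these counts.

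The directions depended on the scaling here too. High yield lay above low yield in 5 even rows and below it in 14 after median-of-ratios scaling, beside 3.58% and 2.73% of all 2965 rows on that scale. After trimmed-mean scaling the counts were 4 and 17, beside 3.07% and 3.24%. Medium yield lay above low yield in 2 and below it in 15 after the first, beside 1.21% and 2.36%, and in 1 and 13 after the second, beside 1.18% and 2.29%. High yield lay above medium yield in 8 and below it in 3 after the first, beside 3.64% and 2.77%, and in 3 and 5 after the second, beside 3.1% and 3.14%.

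With the yield classes matched within population, high yield differed from low yield in one direction in all 3 populations in 51 even rows, beside 23.2% of all 2965 rows. Medium and low yield did so in 48 even rows, beside 17.6%, and high and medium yield in 42, beside 25.6%. High yield lay above low yield in 32 even rows and below it in 19, beside 14.9% and 8.33% of all rows. The counts were 15 and 39 after median-of-ratios scaling, beside 10.3% and 11.2%, and 12 and 42 after trimmed-mean scaling, beside 9.44% and 12.2%. Medium yield also changed from mostly above low yield to mostly below it, whereas high yield was more often above medium yield on every scale. The differences between yield class means had a median size of 3.88% of the row mean for high against low, 3.79% for medium against low and 3.58% for high against medium yield, against 9.24%, 7.75% and 8.15% in the remaining rows.

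The even row with the highest share of variance between yield classes, 86.5%, was XM_010938732.2 (LOC105056516). Over the populations SP540, Yangambi and LaMe it was at 135.2, 127.0 and 136.0 TPM in low-yield leaves, at 151.3, 149.1 and 152.0 TPM in medium-yield leaves and at 154.1, 145.3 and 148.4 TPM in high-yield leaves. The low-yield libraries lay below the other 6, but under both rescalings low yield overlapped with medium yield and stayed below high yield. Class means were 132.8 ± 4.97 TPM for low, 150.8 ± 1.5005 TPM for medium and 149.3 ± 4.47 TPM for high yield (SD, n = 3 each). The row held 57.3% of the summed TPM of its gene, which has a further row. In that sum low yield, at 225.7, 208.0 and 249.4 TPM, overlapped with high yield, at 280.9, 248.3 and 268.9 TPM. Medium yield, at 280.3, 254.5 and 249.9 TPM, stayed above low yield in the sum.

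XM_010944605.3 (LOC105060764) was the single even row in which all 3 yield classes stood apart, beside 0.169% of all 2965 rows. In the same order of populations it was at 50.6, 50.8 and 51.2 TPM in low-yield, 47.7, 47.4 and 49.1 TPM in medium-yield and 55.0, 55.2 and 51.6 TPM in high-yield leaves. Medium yield was lowest and high yield highest, so the level did not step in the order of yield. Under both rescalings medium yield stayed lowest, while high and low yield overlapped.

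XM_010928787.3 (LOC105049212) averaged 86.5 ± 3.05 TPM at low, 95.5 ± 2.07 TPM at medium and 86.0 ± 4.37 TPM at high yield (SD, n = 3 each), with the medium class highest. The mean of the medium class stayed highest under both rescalings, at 93.9 and 94.1. In SP540, however, the medium-yield library, at 86.1 and 85.6, then lay below the low-yield library, at 88.9 and 89.6, so these classes overlapped. XM_010944519.2 (LOC105060710) was at 52.0, 48.9 and 47.9 TPM at low, 56.7, 54.1 and 51.6 TPM at medium and 56.6, 54.5 and 59.5 TPM at high yield. Its class means lay in the order of yield, under both rescalings as well, but its medium and low classes overlapped. After median-of-ratios scaling these classes were just apart, with SP540 at 51.9 at low and 52.1 at medium yield. After trimmed-mean scaling they overlapped, with SP540 at 52.4 and 51.8 in the same order. The fifth row of highest share between yield classes was XM_010916818.3, the most even row of all, with 67.6%.

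Several features that the choice did not use were then described. Of the even rows, 174 (87.0%) were paired by accession with a gene of the RefSeq table of assembly EG11, against 80.7% of the remaining rows, and the 174 rows belonged to 174 different genes, all annotated as protein-coding. Accessions that begin with XM_010 were 190 of the 200 even rows and 88.6% of the remaining rows. The table gives LOC numbers for the 174 genes and no name or product, so no function is assigned to a row. The genes lay on all 16 numbered chromosomes, and 2 pairs were next to each other in the order of protein-coding genes. One pair was LOC105059873 and LOC105059874 (XM_010943360.3 and XM_010943362.2), at 76.7 and 174.5 TPM on average, and the other was LOC105054261 and LOC105054260 (XM_010935749.2 and XM_010935748.3), at 203.3 and 62.2 TPM. Chromosomes and pairs were not counted for the remaining rows, so no clustering is read from these counts.

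Even rows were mostly the only row of their gene, and so were the remaining rows. This held for 144 of the 174 paired even rows (82.8%), against 77.2% of the paired remaining rows. Genes with a single RefSeq transcript in EG11 accounted for 75.9% and 66.8% in the same order.

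The other 30 even rows belonged to genes with at least 1 further row in the table. In 19 of them the even row held at least 90% of the summed TPM of the gene, and the lowest share was 57.3%. There were 45 further rows, of which 37 had a mean of at least 1 TPM. By accession and level 2 of these 37, XM_010919320.2 and XM_010938731.3, were open to the choice, and neither was an even row. The CV of the 37 ran from 9.25% to 186% with a median of 38.5%. When the rows of each gene were summed, the CV of the sum was lower than that of the even row in 13 genes and higher in 17, and in 5 genes the sum had a CV above the highest of the even rows.

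The 5 genes in which the sum differed most from the row went in both directions. LOC105042200 had its even row XM_010919319.2 at 161.4 ± 10.6 TPM with a CV of 6.54%, while XM_010919320.2 was at 59.8 ± 19.7 TPM, and the sum had a CV of 10.4% (SD, n = 9). In LOC105056516 the further row XM_010938731.3 was at 107.5 ± 16.4 TPM, against 144.3 ± 9.32 TPM for the even row, and the sum had a CV of 9.51%. For LOC105060736 (XM_010944544.2) the CV was 4.21% for the row and 6.46% for the sum. In LOC105054448 the sum was the more even quantity. Its row XM_010935951.3 had a CV of 7.31% and the non-coding model XR_002165717.2 one of 9.25%, but their sum, at 145.7 ± 6.30 TPM, had a CV of 4.32%. For LOC105060076 (XM_010943671.3) the CV was 6.87% for the row and 4.39% for the sum.

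**Figure D5:**
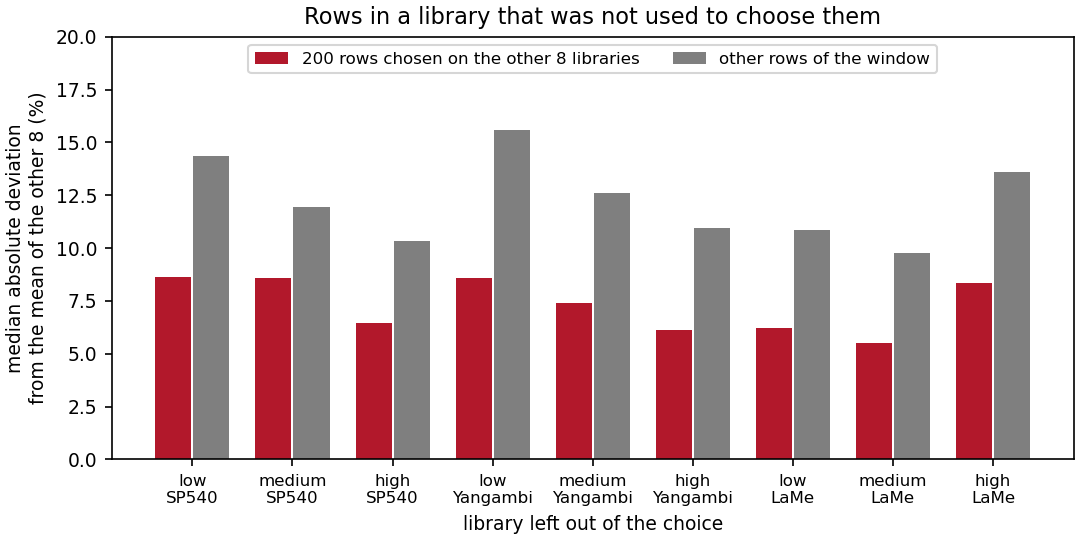
Median absolute deviation (%) of a library from the mean of the other 8, for the 200 rows chosen on those 8 (red) and for the other rows of the window (grey), with 1 pair of bars per library that was left out of the choice. Each red bar, from 5.49% to 8.63%, is lower than the grey bar beside it, from 9.78% to 15.6%.

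The even choice was also described in a library that took no part in it, on the TPM scale only. The 200 rows were chosen anew on 8 libraries by the same rule, and their values in the library left out were set against the mean of those 8. The median absolute deviation of the chosen rows was 8.63%, 8.58% and 6.44% for the SP540 libraries from low to high yield, against 14.3%, 11.96% and 10.3% for the other rows of the window. It was 8.58%, 7.40% and 6.11% for the Yangambi libraries, against 15.6%, 12.6% and 10.97%. For the LaMe libraries it was 6.24%, 5.49% and 8.33%, against 10.9%, 9.78% and 13.6%. The chosen rows lay closer in 9 of 9 libraries, and between 56.5% and 77.0% of them fell within 10% of the mean of the others, against 34.4% to 51.2% of the other rows. No test was run on these values, since the 9 choices share libraries. Each library left out also shared its population and its yield class with libraries used in the choice, so it was no independent sample.

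Single rows could still miss widely in a library that had not been used. The largest deviation of a chosen row was 78.5% in the low-yield SP540 library, for XM_010913076.2, and 67.1% in the high-yield LaMe library, for XM_010908158.3; these 2 rows were picked out after their values were seen. The smallest of the 9 largest deviations was 27.6%, in the medium-yield LaMe library. Between 148 and 170 of the 200 even rows were chosen again when 1 library was left out. In all 9 such choices 114 even rows were kept, among them 19 of the first 20, 97 of the first 100 and 17 of the last 100 by CV. Each choice shared its 8 libraries with the ranking by CV, so the rank of a row largely sets whether it was kept.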

How the data were processed

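Transcript abundance was measured in 9 leaf RNA libraries, for which the labels' protocols name a Norgen extraction kit and TruSeq mRNA library preparation. The deposited table is named as counts, but its values hold decimals and each column sums to 1000000, so the values are TPM by the authors. The submitters' processing notes name fastp, kallisto and DESeq2 without versions or order. The transcript set is not given in the sources used here, nor is a genome build. TPM keeps no sequencing depth, so depth is unknown and no counting interval is given.

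CVs used raw TPM of transcript rows (SD with n - 1), in Python 3.11.15 with pandas 2.3.3 and numpy 2.4.6. Shares of variance came from additive terms for population and yield class. Scaling factors were medians of ratios, or means of log ratios after trimming 30% of ratios and 5% of levels at each end. Accessions, without their version, linked rows to genes in a RefSeq table (assembly EG11). Its coordinates were used only for neighbours. The scripts were checked on simulated data.

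Members and lists were chosen with earlier results of these data known. No test between groups was made, because every contrast enters the CV. Named rows were the 20 of lowest CV, the 5 highest and 5 lowest in level, the 5 with the highest share for each factor, 3 on each side of the limit, the 2 extreme single values, and the 5 genes whose sum differed most. No even row had a gene name. No product names or sequences were at hand, so planned lists by product and promoter and protein features were not run.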

Additional observations from a re-analysis of the deposited data

How the results depend on the processing

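The 200 rows were chosen by another measure of spread, scaling or range of means, and the even rows among them were counted. Of the 200 even rows, 192 and 193 were chosen by the SD of log2 values with pseudocounts of 1 and 0.1, and 173 with rows summed per gene. With TPM relative to the geometric mean of the even rows, an alternative chosen after seeing the data, 185 were chosen. That scale is set by the even rows themselves, so this count is no independent check. The count was 135 with median-of-ratios scaling, 128 with trimmed-mean scaling, 76 with the median absolute deviation over the median, 118 and 85 with means of at least 10 and 100 TPM, and 116 with no range of means. Where the range of means changed, other rows became eligible or even rows were no longer eligible. Leaving out single libraries gave 148 to 170.

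The median CV of the chosen rows, 6.65%, was 6.24% to 6.76% without single libraries. It was 6.97% and 6.98% under the median-of-ratios and trimmed-mean scalings, 6.06% and 8.14% with means of at least 10 and 100 TPM, and 6.02% with no range. For the even rows, the median share of variance between populations was 26.0% to 28.1% without single libraries and 28.3% and 27.5% under the scalings. Between yield classes it was 16.5% and 15.9% under the scalings and 18.5% to 25.3% without single libraries. With 8 values and as many terms, such shares rise by construction. The span of the library medians, 2.11 points, was 1.76 to 2.37 points without single libraries, and 13.2 and 14.1 points under the scalings.

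Counts of even rows without overlap rise when a library is left out, since 2 values are easier to separate from 3. They were 29 to 47 for SP540 and Yangambi, 37 to 53 for SP540 and LaMe, 41 to 56 for Yangambi and LaMe, 37 to 44 for high and low, 34 to 39 for medium and low, and 30 to 46 for high and medium yield. Median-of-ratios scaling gave 26 for SP540 and Yangambi, 42 for SP540 and LaMe and 11 for high and medium yield, and trimmed-mean scaling gave 42 for SP540 and LaMe and 8 for high and medium yield; the cause was not tested. Counts of even rows that differed in one direction in all matched pairs, also chosen after seeing the data, moved by less than 1.5 times under both scalings. The balance of directions within these counts shifted, as given above. Without single libraries, where 2 pairs remain, they were 85 to 109, 92 to 102 and 105 to 112 for the population pairs in the order above, and 98 to 104, 96 to 102 and 92 to 97 for the yield pairs. In a row that follows neither factor, 2 pairs take the same direction about as often as not. Shares of all rows of the range of means were not counted without single libraries. Nothing is therefore read from the counts without single libraries, neither from matched pairs nor from rows without overlap. Without depth, the part of a CV that comes from counting could not be given.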

Other observations

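Rows outside the rule reached the same evenness. Among 14 curated mRNA rows with an NM accession between 50 and 1000 TPM, 1 had a CV no higher than that of the 200th even row. It belongs to the gene named PEX13, a name that stands in other species for a membrane protein of peroxisomes, the organelles of photorespiration and fatty acid breakdown. It was measured at 363.1, 316.2 and 351.3 TPM in SP540, at 308.0, 351.3 and 328.5 TPM in Yangambi and at 314.3, 327.6 and 309.1 TPM in LaMe leaves at low, medium and high yield. Its CV was 6.22%, and 71 of the 2965 rows had a lower one. Of the 17 rows of genes with a name and a mean of at least 10 TPM, 2 were open to the choice by accession and level. Beside PEX13 and the genes of the reference type, RGP1 had a CV of 9.99%, SAG of 11.1%, GPAT, a glycerol-3-phosphate acyltransferase of glycerolipid assembly, of 11.7%, and sbp1 of 16.1%. The CV was 16.5% for AQP, 17.8% for HCS, 18.2% for ADPRF, 22.1% for M39A, 24.5% for CAT2, 26.8% for CHAC1 and 39.3% for MnSOD.

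Above 1000 TPM, 12 of 89 predicted mRNA rows (13.5%) had a CV within the range of the even rows. The lowest was that of XM_010914758.3 (LOC105038844), 5.52%, at 2594 TPM at the lowest, 2920 TPM at the median and 3030 TPM at the highest. XM_010920538.2 (LOC105043122) followed at 3452 ± 195 TPM with 5.65%. Between 10 and 50 TPM the share was 166 of 8282 rows (2.004%), with XM_010914725.3 (LOC105038819) lowest at 21.7 ± 0.773 TPM and a CV of 3.57%. Between 1 and 10 TPM it was 6 of 13863 rows. The non-coding rows between 50 and 1000 TPM gave 1 of 74, XR_830753.3, with 6.75% at 166.2 ± 11.2 TPM (SD, n = 9). Those named here were picked out after their values were seen.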
